A study of Homo sapiens with 11 samples.

Results

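MAP3K20, DBT, FAM217B, GINM1, MAN1A2 and BRCC3 were read lower with each of 2 small interfering RNAs (siRNAs) against nemo-like kinase (NLK) than with control siRNA, in both breast cancer lines of the study. These 6 genes were taken by that rule: a level below the control siRNA library of the line in all 4 NLK siRNA libraries. Of 59087 genes in the count tables, 24023 passed the filter on low counts, all 6 genes among them, and 2530 of these (10.5%) met the rule. A further 2886 genes were higher in all 4 NLK siRNA libraries. Ordered by the knockdown fit described below, with NLK set apart, the 6 genes stand at places 1, 2, 3, 7, 8 and 9 of those that met the rule. The gene at place 9 is BRCC3, with a log2 fold change of -0.67, and the next, which is not among the 6, is SYNE2 with -0.62. SMC2 (-0.92) and GHR (-0.88) also stand ahead of BRCC3 and are not among the 6. Because NLK siRNA against control siRNA chose the genes, their values in that comparison are given as a description, without a test.

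NLK is a serine/threonine kinase of the MAP kinase superfamily that phosphorylates transcription factors of the Wnt and Notch pathways. BT483 and T47D-TamR are human breast cancer lines that express the estrogen receptor; T47D-TamR was derived from T47D by long passage in tamoxifen, an estrogen receptor antagonist. Cells were held without estrogen for 48 h in every group. In the siRNA arm, each line was then transfected for 72 h at 10 nM with a pool of control siRNAs, with NLK siRNA type 1 or with NLK siRNA type 2, and a second control siRNA culture also received 0.5 µM tamoxifen. In the drug arm, untransfected T47D-TamR cells received DMSO (the drug solvent), VX-702 at 0.5 µM, or tamoxifen at 0.5 µM in DMSO. VX-702 was developed against p38α MAP kinase, and the labels list it as a drug directed at NLK. This gave 4 BT483 and 7 T47D-TamR libraries, 1 for each of 11 groups, so no group has a replicate and each line stands for 1 cell population. The NLK siRNA libraries of the other line and the other siRNA serve as the only repeats of the knockdown. In the knockdown fit p-values measure the spread between these samples and between the tamoxifen pairs. Tests in the drug arm borrow the spread of the NLK siRNA libraries. Between lines, p-values measure the spread of the line difference over the conditions of the siRNA arm.

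The 6 genes act in separate processes. MAP3K20 (also called ZAK) is a kinase at the top of the p38 and JNK stress cascades that responds to stalled ribosomes. DBT is the E2 subunit of the mitochondrial complex that breaks down the keto acids of leucine, isoleucine and valine. BRCC3 is a deubiquitinase that removes lysine-63-linked ubiquitin chains, in the nuclear BRCA1-A complex and the cytoplasmic BRISC complex. MAN1A2 is a Golgi mannosidase that trims N-linked glycans. GINM1 encodes a glycoprotein of the membrane, and the role of FAM217B is little described.

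Library totals lay between 14637083 and 26915863 counts, and 3 counts are at most 0.205 CPM, the count scaled to a common library total. Levels below are CPM with TMM factors (0.937 to 1.06), and each percentage compares 2 libraries with an exact 95% interval that covers counting error only. Luminal markers were present in all libraries, with summed levels of 14570 to 16600 CPM in BT483 and 5478 to 7889 CPM in T47D-TamR, where ESR1 itself was 19.5 to 31.5 CPM. The leukocyte markers PTPRC, CD3E and CD68 and the endothelial marker PECAM1 had at most 5 counts in any library, and VWF was at most 3.01 CPM. The 5 mesenchymal markers summed to 59.5 to 94.6 CPM in BT483 and 66.2 to 117 CPM in T47D-TamR, mostly FN1 and COL1A1, with VIM at most 2.23 CPM, and the basal markers KRT5 and KRT14 were at most 1.57 CPM and TP63 at most 9.57 CPM. NLK was 30.0 CPM with control siRNA in BT483, 8.52 with type 1 and 5.42 with type 2, and in T47D-TamR 29.3, 10.3 and 12.2 CPM in the same order. All 4 NLK siRNA libraries thus lay below the 7 others, which held 28.1 to 34.5 CPM. In edgeR's quasi-likelihood fit over all libraries NLK had a log2 fold change of -1.75 (SE 0.21, adjusted p = 0.0308) and was the 1 gene of 24023 called (0.00416%). The call was lost with limma, without a block for line and arm, with offsets for length and GC content, and under a minimum of 10 counts per library: each of these called no gene.

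The sequences of both siRNAs are shown first because 4 of the 6 genes hold a match to a guide seed in the 3′ untranslated region (UTR). Of all coding genes tested with a 3′ UTR, 80.9% hold no match to either guide seed. An siRNA is a duplex of a guide strand, which pairs with the target mRNA, and a passenger strand. Bases 2 to 8 of the guide, its seed, can also pair with the 3′ UTRs of other mRNAs, as in microRNAs. The guides, with the seed in capitals, are the reverse complements of the 19-base sequences in the treatment protocol:
siRNA 1 guide: uCUUGGAUcuguuacugac
siRNA 2 guide: uAGUCUUCaaauucagcuc
The first matches exon 2 of 11 of NLK before the 3′ UTR, at chr17:28122603-28122621, and the second the 3′ UTR in exon 11, at chr17:28196045-28196063 (GRCh38, GENCODE 29, plus strand). That types 1 and 2 of the libraries are siRNAs 1 and 2 is read from the numbering.

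The 3′ UTR of the longest coding transcript of each gene was searched on the mRNA strand for the site of each seed, ATCCAAG for guide 1 and GAAGACT for guide 2. In these transcripts MAP3K20, DBT and FAM217B each held both. Their guide 1 sites are shown in capitals, within 25 bases, so that the flanks can be set beside the guide:
MAP3K20, chr2:173227050-173227056, plus strand: tattcagaaATCCAAGttggtgtca
DBT, chr1:100195471-100195477, minus strand: ttttgagatATCCAAGagtatattc
FAM217B, chr20:59948024-59948030, plus strand: attaaaacaATCCAAGtttctttaa
MAP3K20 had a pair of guide 2 sites, and DBT, FAM217B and MAN1A2 had 1 each:
MAP3K20, chr2:173224807-173224813, plus strand: gatcatttgGAAGACTttagactct
MAP3K20, chr2:173226588-173226594, plus strand: ggaaatctaGAAGACTagccgtgtt
DBT, chr1:100189737-100189743, minus strand: tgcctaaaaGAAGACTcagaatgct
FAM217B, chr20:59948211-59948217, plus strand: aaatgggctGAAGACTtgtaactaa
MAN1A2, chr1:117523479-117523485, plus strand: cagtaacaaGAAGACTcaaaaaaga
GINM1 and BRCC3 held neither. The MAP3K20 guide 1 site is at base 5520 of the 5616 bases of the 3′ UTR used. The gene runs on to chr2:173268010, so MAP3K20 transcripts that end further along may lack these sites. Such transcripts were not searched, and counts by gene do not tell transcripts apart. No whole siRNA target occurs in the 6 transcripts: the longest exact run was 13 bases, between MAN1A2 and the target of guide 2, against 19 in NLK, and no run in the other 5 genes exceeded 10 bases. Among all 14782 coding genes with a 3′ UTR, 9.46% held the guide 1 site and 12% the guide 2 site, and 345 (2.33%) held both. The passenger seeds have the sites TTACTGA, found in MAP3K20, DBT and FAM217B and in 13.9% of genes, and TTCAGCT, found in DBT and MAN1A2 and in 16.1%. Long 3′ UTRs hold more sites of any kind: the median 3′ UTR was 1057 bases in genes with neither guide site and 5319 in genes with both. Among expressed coding genes with 3′ UTRs of at least 3000 bases, 8.24% held both guide sites and 54.6% neither. The 3′ UTRs of MAP3K20, DBT, FAM217B and MAN1A2 all exceed that length. A seed match is a description of the sequence, and its part in the levels below was not tested in the 6 genes.

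MAP3K20 (ENSG00000091436.16) lies on the plus strand at chr2:173075435-173268010 and has 12 exons in the transcript used. In BT483 it was 52.1 CPM under control siRNA, 29.6 with type 1, 31.1 with type 2 and 40.7 under control siRNA plus tamoxifen. In T47D-TamR it was 191 CPM under control siRNA, 112 with type 1, 86.9 with type 2 and 147 under control siRNA plus tamoxifen, and in the drug arm 183 with DMSO, 161 with VX-702 and 169 with tamoxifen in DMSO. Both NLK siRNA libraries were the lowest of their line, and the highest of them stood at 76.3% of the lowest other library in BT483 and at 75.7% in T47D-TamR. Relative to control siRNA the BT483 levels were 56.9% (50.7 to 63.7) with type 1 and 59.6% (54.3 to 65.5) with type 2. The T47D-TamR levels were 58.4% (55.7 to 61.2) and 45.5% (43.1 to 47.9). Control siRNA itself was at 105% (100.4 to 109) of DMSO. In bulk RNA fewer cells of a type and less RNA per cell cannot be told apart.

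DBT (ENSG00000137992.14) is on the minus strand at chr1:100186919-100249834, with 11 exons and the longest 3′ UTR of the 6, 9336 bases. In BT483 it was 32.4 CPM under control siRNA, 23.0 with type 1, 20.6 with type 2 and 33.6 under control siRNA plus tamoxifen. In T47D-TamR the siRNA arm held 46.4, 23.9, 22.8 and 42.1 CPM in the same order, and the drug arm 46.4 with DMSO, 40.4 with VX-702 and 45.4 with tamoxifen in DMSO. DBT showed the widest gap of the 6 in T47D-TamR, with the 5 libraries without NLK siRNA between 40.4 and 46.4 CPM and both NLK siRNA libraries at most 59.2% of any of them. Relative to control siRNA the levels were 70.8% (61.9 to 81.0) and 63.4% (56.3 to 71.3) in BT483. In T47D-TamR they were 51.6% (46.6 to 56.9) and 49.1% (44.2 to 54.5), and control siRNA was 100.1% (92.2 to 109) of DMSO.

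FAM217B (ENSG00000196227.10) is on the plus strand at chr20:59933764-59948680, with 5 exons. BT483 held 57.3 CPM under control siRNA, 37.7 with type 1, 27.7 with type 2 and 49.0 under control siRNA plus tamoxifen. The siRNA arm of T47D-TamR held 93.5, 53.0, 35.9 and 75.1 CPM in that order, and the drug arm 83.9 with DMSO, 78.3 with VX-702 and 79.5 with tamoxifen in DMSO. Type 2 gave the lowest value in each line, at 48.4% (44.0 to 53.2) of control siRNA in BT483 and 38.4% (35.4 to 41.6) in T47D-TamR. With type 1 the levels were 65.8% (59.3 to 72.9) and 56.7% (52.9 to 60.6). FAM217B was the 1 gene of the 6 whose type 2 library lay below its type 1 library by more than counting error in both lines, at 73.6% (66.0 to 82.1) and 67.7% (62.0 to 74.0) of it. Its exons share 123 bases with those of PPP1R3D on the opposite strand, which had 1110 to 3631 counts per library. The strand setting of the counting is not given in the sources used here, so reads of both genes there may not be told apart. Antisense genes overlapping exons of MAP3K20, GINM1 and DBT had at most 37, 32 and 5 counts.

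MAN1A2 (ENSG00000198162.12) is on the plus strand at chr1:117367449-117528872, with 13 exons. In BT483 it was 66.8 CPM under control siRNA, 52.9 with type 1, 50.2 with type 2 and 66.5 under control siRNA plus tamoxifen. In T47D-TamR the siRNA arm held 139, 65.1, 74.9 and 86.0 CPM in this order, and the drug arm 120 with DMSO, 85 with VX-702 and 94.5 with tamoxifen in DMSO. The NLK siRNA libraries were lowest in both lines, but in T47D-TamR all 3 libraries given tamoxifen or VX-702 also lay below DMSO and control siRNA. Type 1 was 46.9% (44.2 to 49.8) of control siRNA in T47D-TamR, and type 2 was 54.0% (50.9 to 57.2). Against VX-702 the same libraries stood at 76.7% (71.8 to 81.9) and 88.2% (82.6 to 94.1). In BT483 the levels were 79.3% (72.4 to 86.7) and 75.1% (69.4 to 81.3) of control siRNA, the smallest differences of the 6 genes in that line.

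GINM1 (ENSG00000055211.13) is on the plus strand at chr6:149566294-149591748, with 8 exons and the shortest 3′ UTR of the 6, 910 bases. In BT483 it was 22.0 CPM under control siRNA, 14.4 with type 1, 14.8 with type 2 and 23.9 under control siRNA plus tamoxifen. In T47D-TamR the siRNA arm held 63.2, 38.7, 29.6 and 48.5 CPM in this order, and the drug arm 41.5 with DMSO, 38.7 with VX-702 and 39.5 with tamoxifen in DMSO. In T47D-TamR it was thus the control siRNA library that stood highest, at 152% (141 to 165) of DMSO, while control siRNA lay between 100.1% and 116% of DMSO for the other 5 genes. Against control siRNA, GINM1 was 61.3% (56.5 to 66.4) with type 1 and 46.9% (42.8 to 51.3) with type 2. Against DMSO it was 93.2% (85.3 to 102) with type 1, an interval that reaches 100%, and 71.3% (64.6 to 78.6) with type 2. In BT483, which has no drug arm, both siRNAs gave similar values, 65.4% (55.2 to 77.2) and 67.1% (58.2 to 77.3) of control siRNA.

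BRCC3 (ENSG00000185515.14) is on the plus strand at chrX:155071420-155123074, with 12 exons. In BT483 it was 27.3 CPM under control siRNA, 17.4 with type 1, 18.6 with type 2 and 20.9 under control siRNA plus tamoxifen. In T47D-TamR the siRNA arm held 25.5, 15, 15 and 14.6 CPM in this order, and the drug arm 24.0 with DMSO, 15.2 with VX-702 and 16.9 with tamoxifen in DMSO. In T47D-TamR control siRNA and DMSO stood high, and the 5 libraries with NLK siRNA, tamoxifen or VX-702 stood together between 14.6 and 16.9 CPM. Against control siRNA the NLK siRNA libraries were 59.0% (51.8 to 67.1) with type 1 and 58.8% (51.5 to 67.2) with type 2. Against VX-702 they were 99.0% (85.5 to 115) and 98.8% (85 to 115), and against control siRNA with tamoxifen 103% (89.1 to 119) and 103% (88.6 to 119). In BT483 they were 63.6% (54.6 to 74.0) and 68.1% (60.0 to 77.3) of control siRNA, and control siRNA with tamoxifen lay above both, at 76.7% (67.8 to 86.8).

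**Figure D1:**
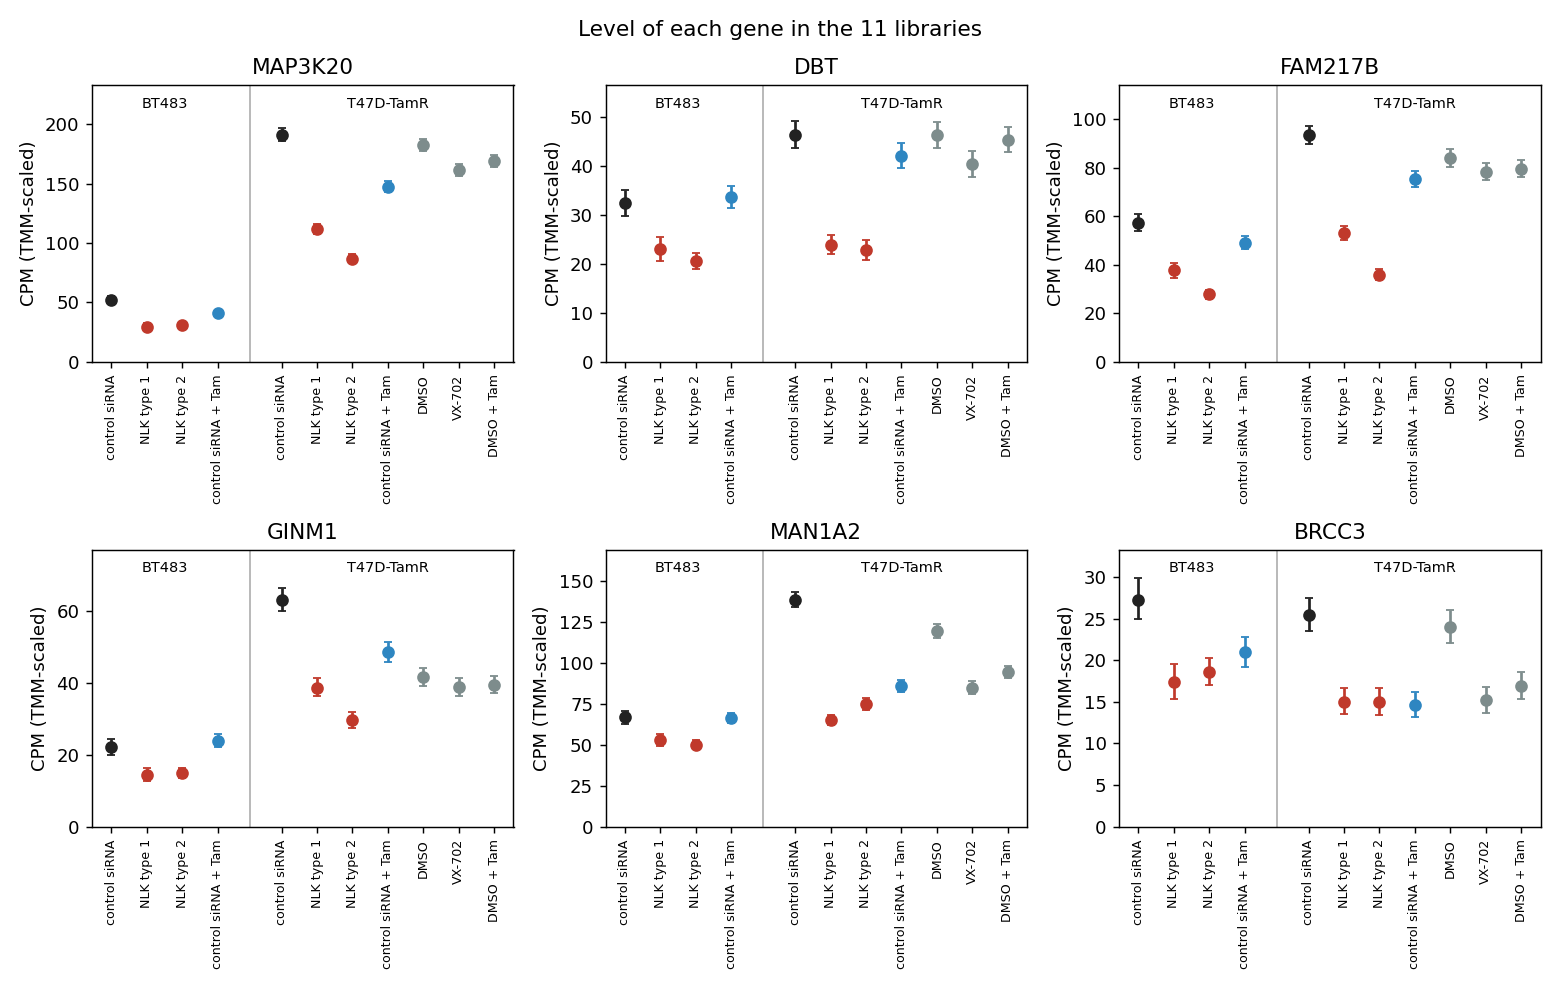
Level of each gene in CPM (TMM-scaled, linear axis from 0) in the 11 libraries, 1 point per library, with exact 95% Poisson intervals of the counts; BT483 is left and T47D-TamR right of the grey line. Red points (NLK siRNA) lie below all other points of their line for 5 genes. For GINM1 in T47D-TamR the type 1 point, at 38.69 CPM, is nearly level with VX-702, at 38.74 CPM. The BRCC3 points for tamoxifen and VX-702 in T47D-TamR lie beside the red ones.

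Across the 6 genes, the 24 values of NLK siRNA against control siRNA ran from 38.4% (FAM217B, type 2 in T47D-TamR) to 79.3% (MAN1A2, type 1 in BT483). The log2 fold changes of the knockdown fit, over both lines and siRNAs, were -0.91 (SE 0.16) for FAM217B, -0.82 (SE 0.13) for MAP3K20 and -0.79 (SE 0.13) for DBT. They were -0.74 (SE 0.14) for GINM1, -0.70 (SE 0.14) for MAN1A2 and -0.67 (SE 0.14) for BRCC3. The median of the 6, -0.76, stands beside 0.02 over all genes and was fixed by the choice of genes. Their standard errors are likewise low by choice, since genes with a close agreement between libraries come first in this order.

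The libraries that the rule did not use are the drug arm and both cultures under control siRNA plus tamoxifen. Both NLK siRNA libraries lay below every other library of their line for 5 of the 6 genes, all but BRCC3, compared with 290 of 24023 genes (1.21%) and with 290 of the 2530 that met the rule (11.5%). Scaled to library totals, GINM1 dropped out as well, leaving 4 of 6 beside 1.32% of all genes. In T47D-TamR, both NLK siRNA libraries lay below all 3 drug arm libraries for 6 of 6 genes, beside 13% of all genes. Scaled to library totals this held for 4 of 6, all but GINM1 and BRCC3, beside 14.5% of all genes, and after adjustment for transcript length and GC content for 6 of 6, beside 16.2%. Against the 3 drug arm libraries, the levels with NLK siRNA ran from 49.2 to 59.2% for DBT, from 42.8 to 67.7% for FAM217B and from 47.6 to 69.2% for MAP3K20. They ran from 54.4 to 88.2% for MAN1A2, from 62.5 to 99.0% for BRCC3 and from 71.3 to 99.9% for GINM1. The first 3 genes were therefore far below the drug arm in both NLK siRNA libraries, and the other 3 reached or approached it in at least 1 of them. The counts are a description, because they reuse the NLK siRNA libraries of the rule.

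**Figure D2:**
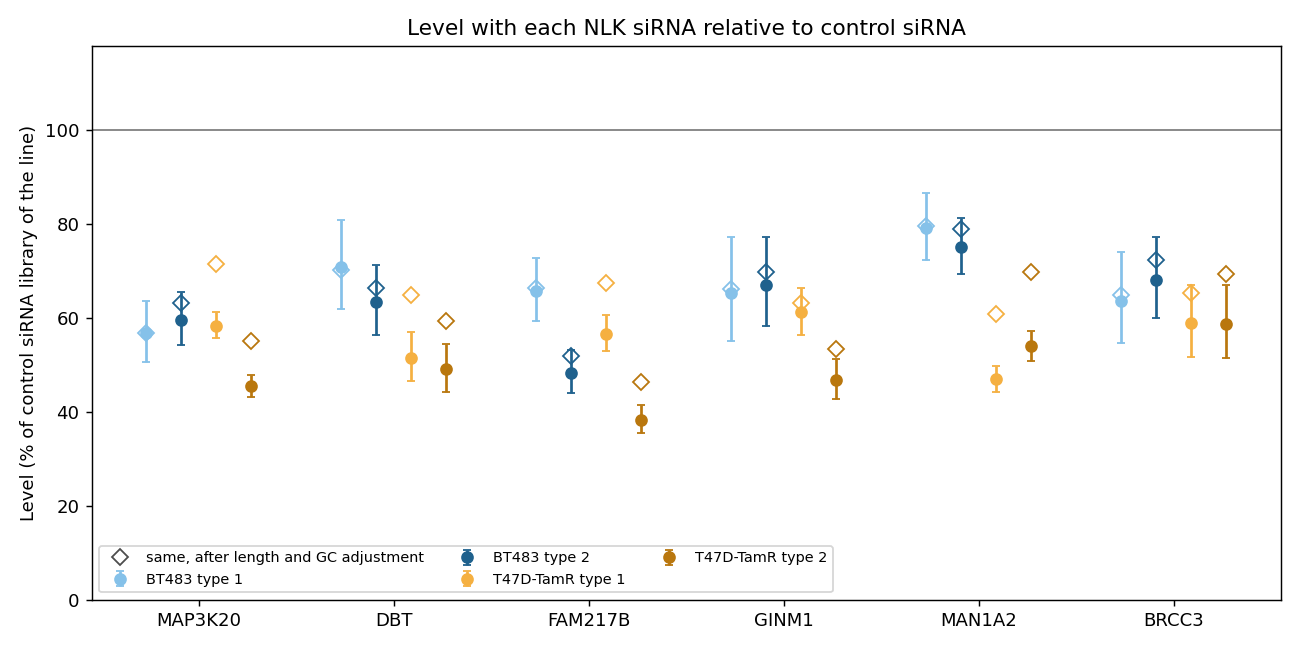
Level with each NLK siRNA as a percentage of the control siRNA library of the line (linear axis), for 6 genes; filled points carry exact 95% intervals for counting error, and open diamonds give the same ratio after adjustment for transcript length and GC content. The points run from 38.4% to 79.3%, and the diamonds lie higher than the points mainly in T47D-TamR.

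Tamoxifen and VX-702 in the drug arm were compared with DMSO in libraries that the rule did not use. The spread in these tests comes from the control siRNA and NLK siRNA libraries, which the rule did use. The standard errors and p-values of the 6 genes are therefore not independent of the rule. No gene was called in either comparison by edgeR's quasi-likelihood test (0% of 24023 genes; 362 genes at an unadjusted p under 0.05 with tamoxifen and 720 with VX-702), where DESeq2 and limma called 0 as well. With VX-702 all 6 genes were lower than with DMSO, as were 43.9% of all genes. BRCC3 was 63.2% (55.3 to 72.2) of DMSO, a log2 fold change of -0.66 (SE 0.30, edgeR adjusted p = 1), and was among the 720 genes. MAN1A2 was 71.0% (67.1 to 75.1) of DMSO, with a log2 fold change of -0.49 (SE 0.27, edgeR adjusted p = 1). The other 4 stood between 87.1% (DBT) and 93.4% (FAM217B), differences smaller than their standard errors of 0.25 to 0.30 on the log2 scale. These comparisons set 1 library against 1 and borrow the spread of the knockdown libraries; in simulated data this test called 22 of 100 genes with a 2-fold change and 98 of 100 with a 4-fold change for VX-702, and 7 and 93 of 100 for tamoxifen.

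With tamoxifen in the drug arm BRCC3 and MAN1A2 were again the lowest. BRCC3 was 70.5% (62.2 to 79.9) of DMSO, with a log2 fold change of -0.50 (SE 0.29, edgeR adjusted p = 1), and MAN1A2 was 78.9% (74.8 to 83.3), with -0.34 (SE 0.27, adjusted p = 1). MAP3K20, DBT, FAM217B and GINM1 stood between 92.7% and 98.0%. All 6 values were below DMSO, as for 43.9% of all genes. The siRNA arm gives 2 further tamoxifen pairs, which share their control libraries with the rule. There BRCC3 was 57.2% (50.2 to 65.1) of control siRNA in T47D-TamR and 76.7% (67.8 to 86.8) in BT483, and MAN1A2 was 62.0% (58.7 to 65.3) and 99.5% (92.4 to 107). MAP3K20 was 77.1% (73.9 to 80.5) and 78.2% (71.5 to 85.4), and FAM217B 80.3% (75.6 to 85.4) and 85.5% (78.7 to 92.9). DBT and GINM1 were lower in T47D-TamR, at 90.7% (83.4 to 98.6) and 76.8% (71.3 to 82.7), and not in BT483, at 104% (93.1 to 115) and 108% (95.3 to 123). Lower values in all 3 tamoxifen pairs were seen for 4 of 6 genes, beside 12.7% of all genes; MAN1A2 counts here although its interval in BT483 holds 100%. Scaled to library totals MAN1A2 dropped out, leaving 3 of 6 beside 13.8%. After adjustment for transcript length and GC content the count was 1 of 6, BRCC3, beside 11.8% of all genes.

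All 6 transcripts were low in GC content, and 4 had long 3′ UTRs. The GC content was 37.3% (MAN1A2), 39.3% (DBT), 39.4% (MAP3K20), 39.7% (FAM217B), 41% (BRCC3) and 42.9% (GINM1), all below the median of 49.4% over 14782 coding genes. The 3′ UTRs of DBT, MAN1A2, MAP3K20 and FAM217B, with 9336, 5915, 5616 and 3585 bases, lay at percentiles 98.7, 95, 94.3 and 84.7 of all genes, whose median is 1234 bases. BRCC3, with 1870, and GINM1, with 910, lay near the middle. Several comparisons had a trend with GC content across genes. Over 12038 coding genes, Spearman's rho between GC content and the log2 ratio was 0.53 and 0.51 for types 1 and 2 in T47D-TamR, and 0.64 for VX-702. It was 0.71 for tamoxifen against control siRNA in T47D-TamR, the highest of the 8 comparisons, and 0.46 for tamoxifen in the drug arm. In BT483 it was -0.02 for type 1, 0.14 for type 2 and -0.08 for tamoxifen. These correlations are across genes that share the same libraries.

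In the bin of 602 genes with a median GC content of 39.3%, the median log2 ratio was -0.26 for type 1 and -0.28 for type 2 in T47D-TamR, and 0.003 and -0.05 in BT483. MAP3K20, DBT and FAM217B, of that GC content, had log2 ratios from -1.38 to -0.78 in T47D-TamR and from -1.05 to -0.50 in BT483. For VX-702 the median of the bin was -0.27, and these 3 genes stood at -0.18, -0.20 and -0.10, above it. After adjustment for length and GC content, all 6 genes stayed below control siRNA in all 4 NLK siRNA libraries. The NLK siRNA ratios set beside the bin, and those adjusted, are the ones that chose the genes, so both are a description. In T47D-TamR the adjusted values for types 1 and 2 were 71.5% and 55.2% for MAP3K20, 64.9% and 59.5% for DBT, and 67.5% and 46.4% for FAM217B. They were 63.3% and 53.4% for GINM1, 60.9% and 69.7% for MAN1A2, and 65.3% and 69.5% for BRCC3. Each was closer to control siRNA than the unadjusted value. For VX-702 the adjusted values were 107% for MAP3K20, 108% for DBT and 112% for FAM217B, so that these changed sides, 99.6% for GINM1, 92.1% for MAN1A2 and 71.9% for BRCC3. With tamoxifen in the drug arm MAP3K20, DBT and FAM217B changed sides as well, at 104%, 112% and 104%, and BRCC3 stayed at 74.1%. For tamoxifen against control siRNA in T47D-TamR the adjusted values were 101.6% for MAP3K20, 123% for DBT and 103.3% for FAM217B, which all changed sides. GINM1 stood at 85.9%, MAN1A2 at 89.1% and BRCC3 at 68.75% in that pair. In BT483 the adjusted tamoxifen values ran from 81.0% for BRCC3 to 112% for GINM1, and MAN1A2 changed sides at 102.6%.

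**Figure D3:**
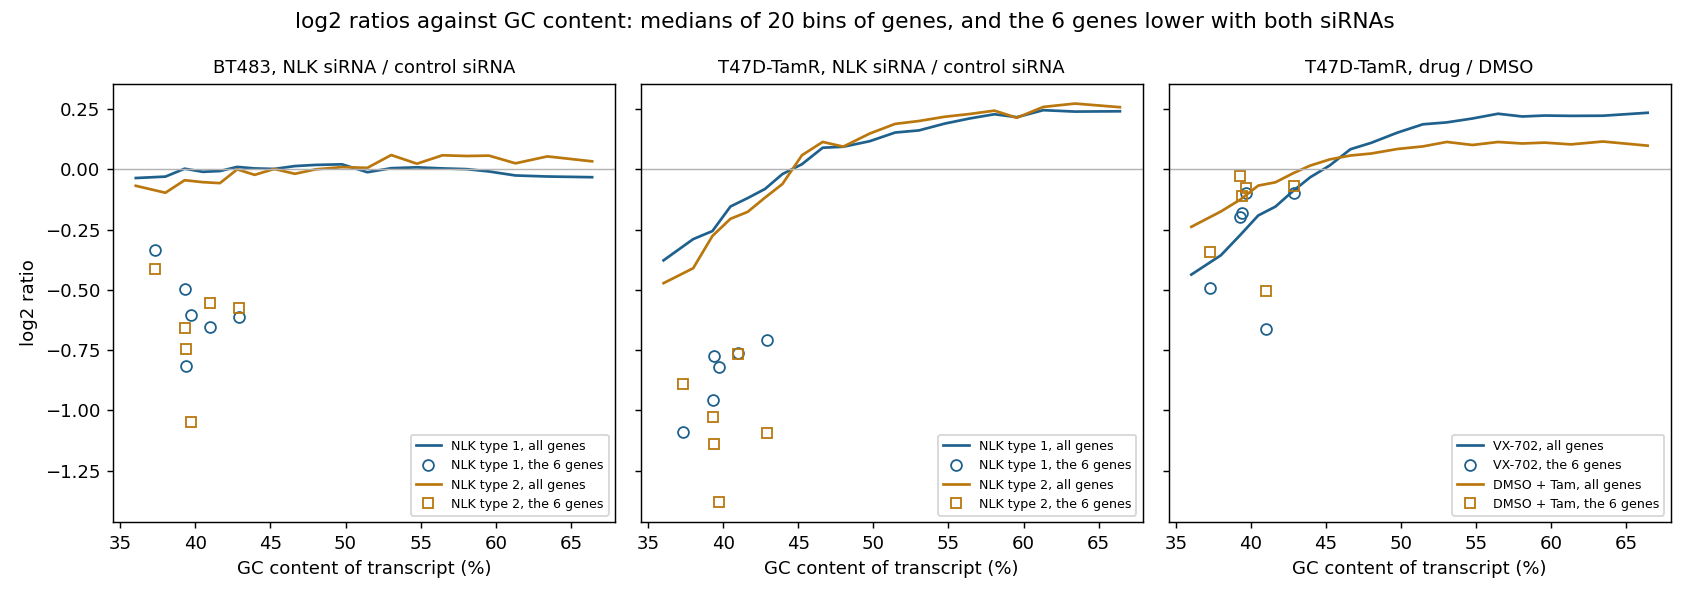
log2 ratios (y axis) against transcript GC content in percent (x axis); lines are medians of 20 bins over 12038 coding genes, and open symbols are the 6 genes. The symbols lie below both lines in BT483 and T47D-TamR with NLK siRNA, whereas with VX-702 or tamoxifen against DMSO most lie near the lines and BRCC3 lies below. The NLK siRNA ratios are those that chose the genes.

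Guide seed sites were compared with the ratios of all genes, in 4 classes by the sites in the 3′ UTR: 9659 expressed coding genes with neither site, 886 with the guide 1 site only, 1206 with the guide 2 site only and 287 with both. Their median GC content was 50.3%, 45.5%, 44.5% and 41.7% in this order. The rule was met by 9.83% of genes with neither, 15.6% with guide 1 only, 18.4% with guide 2 only and 22.6% with both, the class of MAP3K20, DBT and FAM217B. In 3′ UTRs of at least 3000 bases the shares were 12.6% with neither and 23.1% with both. The medians of genes with 1 kind of site differed between the siRNAs. With type 1 the median log2 ratio was -0.04 in BT483 and -0.09 in T47D-TamR for genes with the guide 1 site only, beside -0.004 and 0.09 with neither and 0.01 and -0.002 with the guide 2 site only. With type 2 it was -0.12 and -0.13 for genes with the guide 2 site only, beside 0.02 and 0.08 with neither and 0.004 and 0.06 with the guide 1 site only. After adjustment for length and GC content the guide 2 class stood at -0.09 and -0.10 with type 2, and the guide 1 class at -0.04 and -0.02 with type 1. The class with both sites stood with type 1 at -0.004 in BT483, level with the class with neither, and at -0.11 in T47D-TamR. With type 2 it stood at -0.09 and -0.15. After adjustment it was at -0.01 and 0.03 with type 1 and at -0.03 and -0.06 with type 2. In T47D-TamR the class with both sites also lay below the class with neither in pairs without NLK siRNA. It was at -0.08 beside 0.12 for control siRNA with tamoxifen against control siRNA, and at -0.05 beside 0.09 for VX-702 against DMSO. After adjustment it was above, at 0.07 beside 0.02 and 0.07 beside 0.01. In BT483 with tamoxifen it was above before adjustment, at 0.03 beside -0.01. Passenger seed sites were compared too, before adjustment, as genes with a site beside all without it. With type 1 in T47D-TamR the passenger 1 site stood at -0.0838 beside 0.0878, and the guide 1 site at -0.0976 beside 0.0774. In BT483 the passenger 1 site stood at -0.0004 beside -0.0052. With type 2 the passenger 2 site stood at -0.0182 beside 0.0688 in T47D-TamR and at -0.0196 beside 0.0091 in BT483. Genes are not independent replicates, and no test was made.

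**Figure D4:**
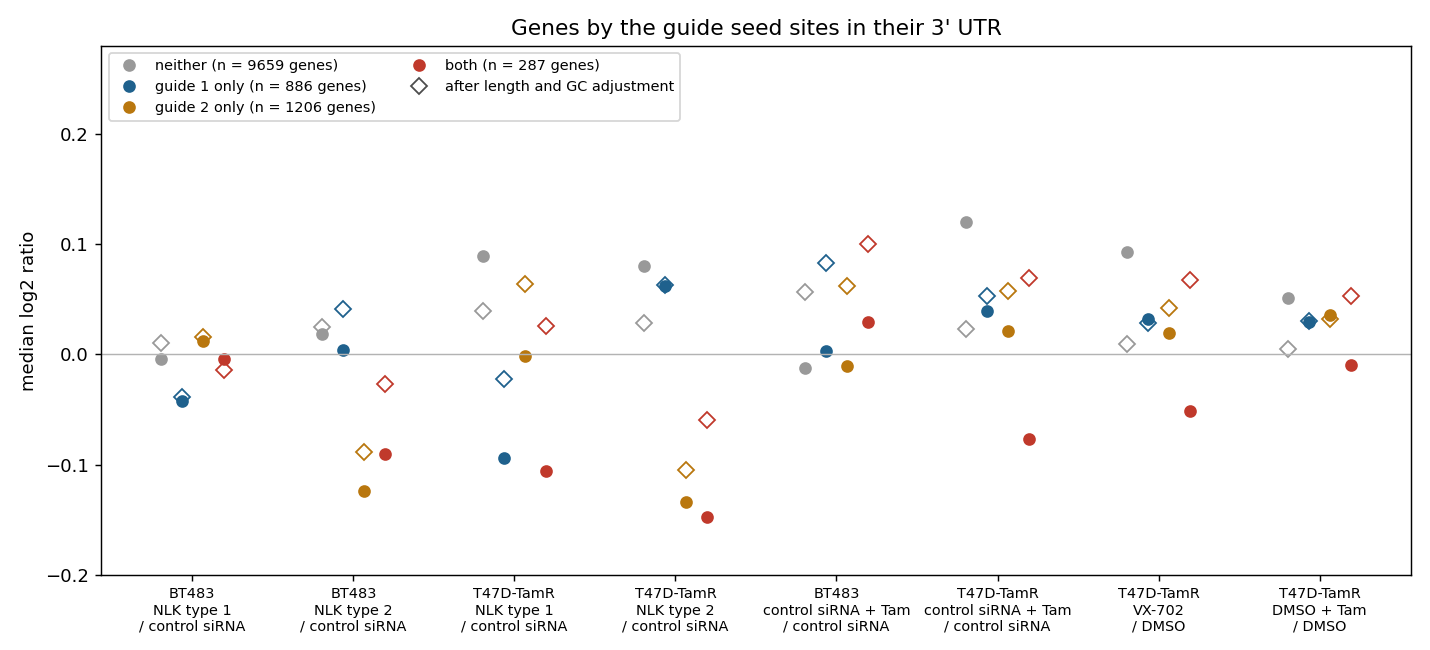
Median log2 ratio (y axis) of expressed coding genes in 4 classes by the guide seed sites in their 3′ UTR, for 8 comparisons of 1 library with its control; open diamonds are medians after adjustment for transcript length and GC content. The guide 1 class is lowest with type 1 in BT483, and the guide 2 class is at -0.12 and -0.13 with type 2, below the class with neither site.

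BT483 and T47D-TamR differed in the level of 4 of the 6 genes, a comparison between lines that the rule did not use. The spread in this test comes from the siRNA arm, which holds the libraries of the rule, so the standard errors are not independent of the choice. Over 4 conditions of the siRNA arm, taken as pairs, edgeR called 15543 of 21990 genes (70.7%), 35.1% of all genes as lower in BT483 and 35.6% as higher. MAP3K20 was lower in BT483, with a log2 fold change of -1.78 (SE 0.12, adjusted p = 1.28e-07), and T47D-TamR held 2.80 to 3.77 times its level in the 4 pairs. GINM1 was lower in BT483, with a log2 fold change of -1.24 (SE 0.14, adjusted p = 1.14e-05), with 2.00 to 2.87 times the level in T47D-TamR. MAN1A2 (-0.58, SE 0.14, adjusted p = 0.00348) and FAM217B (-0.55, SE 0.12, adjusted p = 0.00132) were also lower in BT483, in 4 of 4 pairs. DBT, at -0.27 (SE 0.13, adjusted p = 0.0971), and BRCC3, the only one higher in BT483, at 0.28 (SE 0.14, adjusted p = 0.0936), were not called. In BT483 DBT was lower and BRCC3 higher in 4 of 4 pairs. BRCC3 passed the threshold in 4 other settings, and DBT passed it with the length and GC adjustment. That adjustment was fitted on deviations from the mean of each line, so it cannot remove a length or GC trend between the lines. With it the log2 fold change of DBT stayed at -0.265, while its SE went from 0.135 to 0.109. FAM217B lost its call without the pairing by condition (adjusted p = 0.165). A share of 4 of 6 is close to the share of all genes called.

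On a scale per transcript length, TPM from the authors' log2 values, the medians over the BT483 libraries were 24.8 for GINM1, 24.1 for FAM217B, 18.5 for MAN1A2 and 18.3 for BRCC3. The ranges of these 4 overlapped across libraries. Compared within each BT483 library, GINM1 lay above MAN1A2 and BRCC3 in every one, and the other orders among the 4 varied. MAP3K20, at 7.66 TPM (6.65 to 11.4), and DBT, at 7.47 (5.46 to 8.70), overlapped each other and lay below the other 4. In T47D-TamR the order of medians was GINM1 (46.5), FAM217B (38.1), MAP3K20 (29.5), MAN1A2 (24.2), BRCC3 (13.4) and DBT (10.1). Across libraries each neighbouring pair overlapped except the last, where BRCC3 ran from 11.7 to 21.4 TPM and DBT from 5.24 to 11.5. Within every T47D-TamR library, GINM1 lay above FAM217B, FAM217B above MAP3K20 and MAN1A2 above BRCC3. The order of MAP3K20 and MAN1A2 varied. MAP3K20 thus moved from the lower end in BT483 to the middle in T47D-TamR, where it ran from 17.9 to 37.1 TPM.

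Over the 11 libraries, with each line centred on its mean, the 6 genes followed each other with Pearson's r between 0.61 and 0.95 (15 pairs, median 0.77); genes chosen by 1 rule share that direction. MAP3K20, DBT and FAM217B formed the closest trio: FAM217B had r = 0.95 with MAP3K20 and 0.94 with DBT, and MAP3K20 had 0.93 with DBT. With NLK itself r was 0.91 for DBT, 0.86 for FAM217B, 0.83 for MAP3K20, 0.74 for GINM1, 0.71 for MAN1A2 and 0.55 for BRCC3. Among 13397 genes, the most alike were FAM217B, DBT and PHF10 (0.93) for MAP3K20, GHR (0.94), RTF1 (0.94) and FAM217B for DBT, and MAP3K20, PAIP2 (0.94) and NT5DC1 (0.94) for FAM217B. They were ZNF529-AS1 (0.94), SPAG9 (0.90) and TSNAX (0.90) for GINM1, KCTD3 (0.98), CAPZA1 (0.95) and EPS15 (0.95) for MAN1A2, and CDC27 (0.94), OTUD6B (0.93) and MIPOL1 (0.93) for BRCC3. All of these genes met the rule themselves, and the 11 libraries share their depth and composition, so r describes these libraries only.

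Lists of genes that work with MAP3K20, DBT, BRCC3 and MAN1A2 had medians close to that of all genes, 0.02, in the knockdown fit. Of all genes 46.6% were lower in that fit and 10.5% were lower in all 4 NLK siRNA libraries. In the p38 and JNK cascade around MAP3K20, 11 of 22 genes were lower with NLK siRNA, 0 were called, 4 were lower in all 4 libraries and the median log2 fold change was 0.002. The largest were TAOK1 (-0.57, SE 0.21), a kinase upstream of p38, and MAP3K5 (0.36, SE 0.21), the kinase ASK1. In branched-chain amino acid breakdown around DBT, 9 of 23 were lower, 0 were called, 4 were lower in all 4 libraries and the median was 0.05. The transaminase BCAT1 was at 0.65 (SE 0.59), with opposite directions in the lines. Its log2 ratios for types 1 and 2 were -1.10 and -0.97 in BT483 and 1.56 and 1.09 in T47D-TamR. HIBCH, which acts in valine breakdown, was at -0.42 (SE 0.17) and the dehydrogenase ACADSB at -0.38 (SE 0.16). BCKDHB, the E1 beta subunit of the same complex as DBT, was at -0.27 (SE 0.15); it is named for that role, outside the rule of size, after its value was seen.

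The list around BRCC3 held genes of the BRCA1-A and BRISC complexes and the DNA damage response factors RNF8, RNF168, MDC1 and TP53BP1. Of these, 8 of 12 genes were lower, 0 were called and the median was -0.06. Lower in all 4 libraries were 2, BRCA1 (-0.67, SE 0.36) and its partner BARD1 (-0.25, SE 0.23). The scaffold ABRAXAS2 was at -0.21 (SE 0.16). The 4 higher genes, named outside the rule of size, were ABRAXAS1 (0.10, SE 0.23), BABAM1 (0.09, SE 0.15), BABAM2 (0.15, SE 0.14) and SHMT2 (0.06, SE 0.18). In N-glycan processing around MAN1A2, 8 of 21 were lower, 0 were called, 3 were lower in all 4 libraries and the median was 0.07. MGAT4A, a branching N-acetylglucosaminyltransferase, was at -0.89 (SE 0.21) and the glucosyltransferase UGGT2 at -0.38 (SE 0.15). In that fit 1331 of the 24023 genes had an unadjusted p under 0.05.

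Other changes ran alongside in the same libraries. Each of 10 interferon-stimulated genes was higher in all 4 NLK siRNA libraries, none of them called, with a median log2 ratio of 0.95 and 3.31 for types 1 and 2 in BT483 and of 0.33 and 1.21 in T47D-TamR, and a median of 2.37 for control siRNA against DMSO. Genes of the G2 and M phases had medians of -0.82, -1.81, -0.48 and -0.98 in the same libraries, with 10 of 10 lower in the knockdown fit. In each T47D-TamR NLK siRNA library 8 of 10 were lower, and PLK1 and CCNB1 were higher. With tamoxifen in the siRNA arm the medians were -2.84 in BT483 and -0.79 in T47D-TamR. In BT483 with tamoxifen, where these genes were lowest, BRCC3, MAP3K20 and FAM217B were at 76.7%, 78.2% and 85.5% of control siRNA, and MAN1A2, DBT and GINM1 at 99.5%, 104% and 108%. The part of either group in the levels of the 6 genes was not tested.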

How the data were processed

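Stranded mRNA libraries of 11 cultures were read from both ends, per the labels' protocols. For each library the authors deposited unnormalized counts by gene symbol and, in separate files, log2(TPM + 1) values. The build was GRCh38, per the submitters' processing notes, and aligner, annotation and counter settings were not stated in any source used here. A joint matrix of log2 TPM, deposited as well, had nearly the same distribution in every library and was used for limma only. Columns left unmapped were 0.

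Tests used edgeR 4.0.16 (TMM, filterByExpr, robust quasi-likelihood, 2-sided F test, Benjamini-Hochberg adjustment over all genes tested, threshold 0.05) in R 4.3.3. The knockdown fit held all 11 libraries with line and arm as block and coefficients for NLK siRNA, tamoxifen and VX-702. Tamoxifen and VX-702 in the drug arm came from a fit with tamoxifen per line and arm, in which lone libraries are assumed to vary like the knockdown libraries, and lines from the 8 siRNA libraries paired by condition. DESeq2 1.42.0, limma 3.58.1, other scaling and filters, and leaving out each library were tried. Offsets for length and GC content (splines with 5 terms each) were tried too, fitted per library on deviations from the mean of its line. The tests were checked on simulated data with 200 changed genes. Ratios carry exact conditional binomial 95% intervals. Transcripts and UTRs came from GENCODE 29 (longest coding transcript); 97.0% of tested genes had a transcript. Likeness used log2 CPM with a prior count of 2 and genes with an average of at least 1. The 6 genes, the gene lists and the tests were chosen with earlier results of these data known. From each list the 2 to 4 genes with the largest knockdown log2 fold change were named, and for likeness the 3 with the highest r.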

Additional observations from a re-analysis of the deposited data

Results flagged for a closer look

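Each difference below rests on 1 library per group, was not tested, and is listed because the lines moved in opposite directions before adjustment for transcript length and GC content. For siRNA type 2 against type 1, the log2 ratio in BT483 minus that in T47D-TamR was 0.43 for MAP3K20 (105% of type 1 in BT483 and 77.8% in T47D-TamR). It was 0.42 for GINM1 (103% and 76.5%) and -0.28 for MAN1A2 (94.8% and 115%). For BRCC3 it was 0.10, with 107% (92.2 to 125) in BT483 and 99.7% (85.9 to 116) in T47D-TamR. The BT483 counting intervals of all 4 genes hold 100%, as does that of BRCC3 in T47D-TamR. After adjustment BRCC3 was above 100% in both lines, at 111.7% and 106.4%. For tamoxifen, BT483 minus the mean of both T47D-TamR pairs was 0.34 for GINM1 (108% in BT483, 76.8% and 95.2% in T47D-TamR). It was 0.13 for DBT (104%, 90.7% and 98.0%). The BT483 intervals of both genes hold 100%, and after adjustment DBT was above 100% in all 3 pairs, at 108.3%, 123% and 112.5%.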

How the results depend on the processing

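Each group held 1 library, so no replicate number pairs libraries. The lines were paired by condition; without that pairing 14351 genes were called and FAM217B lost its call (adjusted p = 0.165). The 6 genes kept negative knockdown log2 fold changes in all 18 other settings each, within -1.13 to -0.475. The knockdown count of genes called, 1, was 10 with DESeq2, 249 with no filter on counts, and 0 with at least 10 counts per library, with limma, with no block and after the length and GC adjustment, and 0 to 2 when libraries were left out in turn. The drug arm tamoxifen count, 0, was 2 with no filter, 10 with 1 coefficient over 3 pairs, and 0 to 1 with libraries left out. The VX-702 count, 0, was 2 with no filter and 0 to 1 with libraries left out. Line calls ran from 14535 to 15363 with libraries left out. The length and GC adjustment turned the sign of MAP3K20 (0.055 with tamoxifen, 0.103 with VX-702), DBT (0.17 and 0.113) and FAM217B (0.057 and 0.165); this setting changes the offsets and tests 23313 genes. Between lines, BRCC3 passed with DESeq2 (adjusted p = 0.0495), at least 10 counts (0.0237), limma (0.0278) and the adjustment (0.0476), and DBT with the adjustment (0.0456). Their ranges over all settings were 0.0237 to 0.265 and 0.0456 to 0.401. The adjustment was centred within each line, so it cannot remove a length or GC trend between the lines. Without the BT483 control siRNA library MAN1A2 was at -0.97, DBT at -0.96 and GINM1 at -0.91 in the knockdown fit, and without that of T47D-TamR MAN1A2 was at -0.475; the cause was not tested. Percentages of control siRNA moved past their counting interval in 16 of 72 values from other settings. Counts of the 6 genes ran from 223 to 4818, and no group has a replicate. Settings for the counts of genes below other libraries, or lower in all tamoxifen pairs, were added after the data were seen.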
